A study of Zea mays with 18 samples.

Results

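In roots of the maize line zmnrl1-m, 81 genes had at most 50% of their high-nitrate level at low nitrate while B73 and ZmNRL1-OE showed no comparable fall. They were chosen from 41632 genes by their measured response R, the log2 ratio of mean CPM plus 1 at low nitrate to that at high nitrate. CPM is the count of a gene divided by the total of its library and multiplied by 1000000. A gene was taken when R was at most -1 in zmnrl1-m and at least -0.2 in both B73 and ZmNRL1-OE. All 81 passed the filter on low counts that left 27134 genes for testing. The rule therefore fixed the fall in zmnrl1-m and its absence elsewhere, and the values of those responses below are descriptions. Adjusted p-values printed with those responses come from the libraries that chose the genes, so none is independent evidence of a response. Those printed for zmnrl1-m against B73 share the zmnrl1-m libraries with the rule, so they too only describe the genes.

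Nitrate is taken up by transporters of the root, reduced to ammonium and built into amino acids. It is also a signal, and roots change the transcripts of many genes when its supply falls. The series title presents ZmNRL1 as a positive regulator of how maize responds to nitrogen stress. How the responses of a mutant and an overexpression line compare with B73 is what its design addresses.

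Seedlings of 10 days were given nutrient solution with 0.15 mM nitrate (low) or 15 mM nitrate (high) for 48 h, and whole-root RNA was sequenced. The genotypes were the inbred line B73, zmnrl1-m, labelled a mutant and spelled zmnrl-m in some titles, and ZmNRL1-OE, labelled an overexpression line. Each of the 6 groups of genotype and nitrate level had 3 libraries, 18 in all. The nature of the mutation, the genetic background of both lines, the promoter of the overexpression line and the number of independent events behind each line were not stated in the labels at hand, so any other difference between a line and B73 cannot be told apart from that in ZmNRL1. No label says whether repeats were grown or planted separately, and p-values therefore reflect only the variation among these libraries, part of which may be technical. In bulk roots, fewer cells of a type and less RNA per cell cannot be told apart.

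Total counts per library lay between 21905877 and 39003607. Repeats of a group differed by more than sampling noise, with a chi-square per degree of freedom from 7.80 to 25.6 over 18 pairs, so none was treated as a copy. The files do not pair gene identifiers with names, and 0 of the 41632 identifiers were found among 49888 RefSeq genes of the NAM-5.0 assembly. Roles of the genes, the level of ZmNRL1 itself, root marker genes and nitrate pathway lists were not analysed here. Identifiers are therefore given without roles.

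Falls confined by this rule to a single genotype were more numerous in zmnrl1-m than under the same rule with another genotype in its place. In zmnrl1-m, 396 genes had R of at most -1. Of these, 81 (20.5%) had R of at least -0.2 in both other genotypes, 49 only in B73, 32 only in ZmNRL1-OE and 234 in neither. In B73, 165 genes had R of at most -1, and 7 of them (4.24%) met the exchanged rule. In ZmNRL1-OE, 192 genes did, and 10 of them (5.21%) met it. The 2 smaller counts rested on single libraries. That of B73 was 37 without B73 low-nitrate replicate 1 and 15 without B73 high-nitrate replicate 2. That of ZmNRL1-OE was 19 and 18 without ZmNRL1-OE low-nitrate replicates 1 and 2, 16 and 17 without ZmNRL1-OE high-nitrate replicates 1 and 3, and 17 without B73 high-nitrate replicate 2. With 1 library left out, the rule for zmnrl1-m chose 72 to 117 genes. The difference between the genotypes in these counts was not tested. Rises of at least 2-fold with R of at most 0.2 in both other genotypes were found in 35 genes of zmnrl1-m, 12 of B73 and 21 of ZmNRL1-OE.

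**Figure D1:**
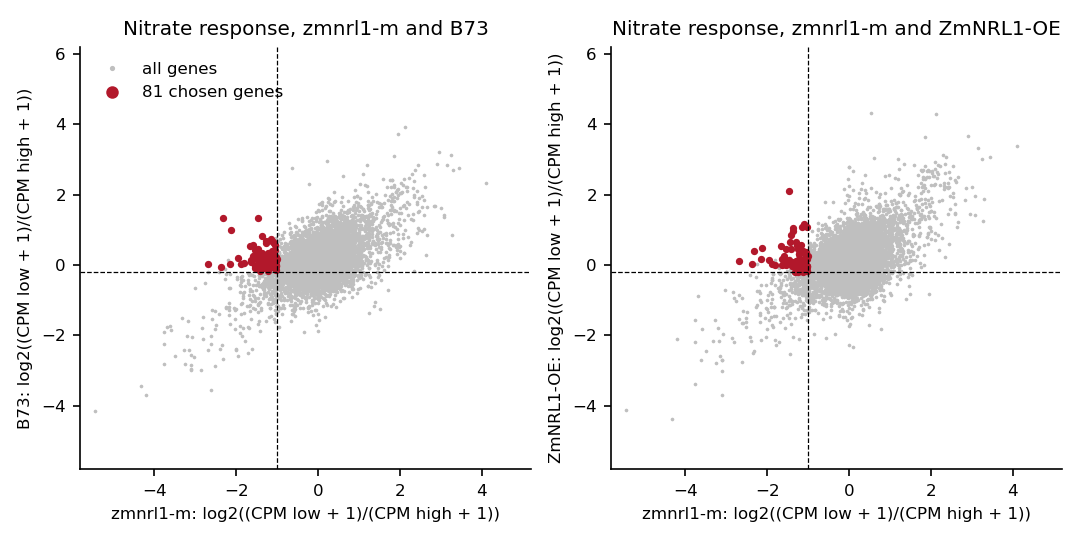
Response R (log2 ratio of mean CPM plus 1, low over high nitrate) of all 41632 genes in zmnrl1-m (horizontal axes) against B73 (left, vertical) and ZmNRL1-OE (right, vertical), with dashed lines at -1 and -0.2. The 81 chosen genes, in red, lie left of -1 and above -0.2 in both plots by construction, and most lie close to 0 on both vertical axes.

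The 81 genes spread from a fall just past the threshold to one of more than 4-fold. R in zmnrl1-m ran from -2.69 to -1.003 with a median of -1.26, and 18 genes were at or below -1.5 and 5 at or below -2. Many lay near the threshold. There were 20 members within 0.1 of -1, and 44 further genes missed that threshold by less than 0.1 while meeting the other parts of the rule. The members just inside it had R of -1.003 and -1.02, and the genes just outside both -0.99. In B73 the nearest members stood at -0.18 and the nearest genes outside at -0.21, and in ZmNRL1-OE these values were -0.19 and -0.18 against -0.21. When each library was left out in turn, 33 of the 81 genes met the rule every time.

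In B73 and ZmNRL1-OE most of the genes hardly moved. R was within 0.2 of 0 in 53 genes in B73 and in 55 in ZmNRL1-OE, with medians of 0.12 and 0.09. The largest values were 1.33 and 2.1. The added 1 CPM hides changes in genes with few reads, and the fitted log2 fold changes reached down to -1.77 in B73 and -2.99 in ZmNRL1-OE, none of them called. At least 0.5 was reached by 12 genes in B73 and 13 in ZmNRL1-OE.

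Across libraries, the fall appeared in each of the zmnrl1-m repeats. The median CPM over the 81 genes was 13.8, 19.4 and 17.0 in the high-nitrate libraries of zmnrl1-m and 6.58, 6.46 and 4.98 in its low-nitrate libraries. In B73 it was 14.5, 10.7 and 10.4 at high and 14.3, 14.6 and 18.0 at low nitrate. In ZmNRL1-OE it was 11.7, 16.2 and 13.7 at high and 20.2, 13.5 and 16.3 at low nitrate. The 3 low-nitrate libraries of zmnrl1-m held the 3 lowest medians of the 18, and the ranges of the other 5 groups overlapped with at least 1 other group.

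Single libraries stood apart within groups. Low-nitrate replicate 3 of zmnrl1-m was the lowest of its group in 53 of the 81 genes, and high-nitrate replicate 2 was the highest of its group in 44. High-nitrate replicate 1 of B73 was the highest of its group in 64. The same counts over all genes tested were not made, and CPM is not scaled by TMM. Nothing particular to the 81 genes is therefore read from them. The median SD of log2(CPM + 1) over the 81 genes was 0.291 and 0.285 in zmnrl1-m at low and high nitrate, and 0.190 to 0.225 in the other 4 groups, against 0.114 to 0.126 over all genes tested. The part of this spread in the choice of the genes was not tested.

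**Figure D2:**
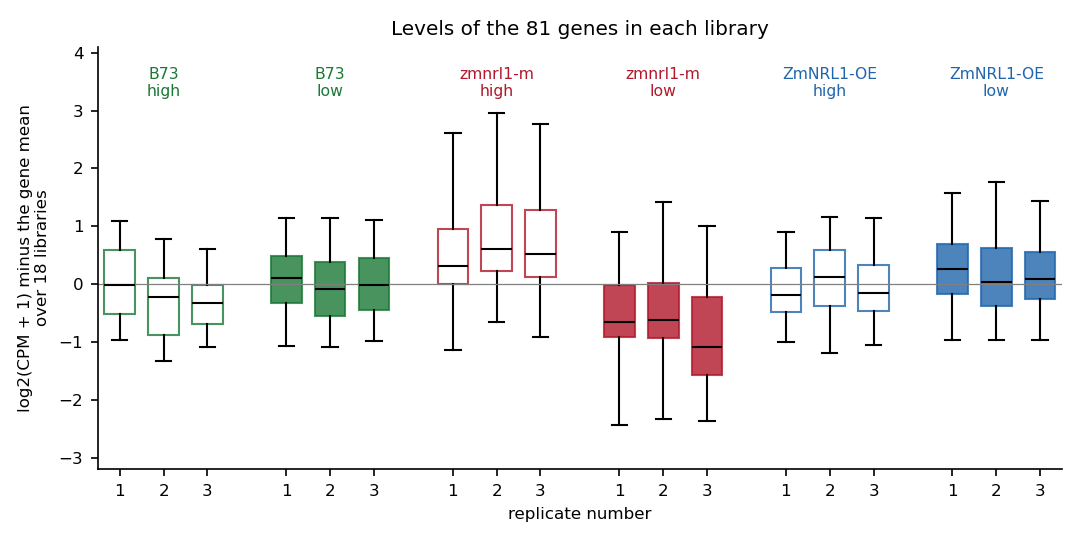
Level of the 81 genes in each library, as log2(CPM + 1) minus the mean of the gene over the 18 libraries; boxes span the quartiles, lines inside are medians and whiskers run from the 5th to the 95th percentile of genes. Medians are lowest in the 3 low-nitrate libraries of zmnrl1-m, from -1.09 to -0.62, and highest in its high-nitrate libraries, from 0.31 to 0.61.

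In a model of all 18 libraries (edgeR's quasi-likelihood test, called at a Benjamini-Hochberg adjusted p under 0.05 over 27134 genes), 78 of the 81 genes were called lower at low nitrate in zmnrl1-m, where 8.97% of all genes tested were. The rule used this contrast, so the count and the adjusted p-values of single genes for it only describe the genes. Their median log2 fold change, scaled by TMM, was -1.47, against 0.00 over all genes. In 78 genes every low-nitrate library of zmnrl1-m lay below every high-nitrate library, as it did in 18.6% of all genes tested. The count of called genes was 69 to 79 with 1 library left out.

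The largest fall among genes with at least 5 CPM in zmnrl1-m at high nitrate was in Zm00001d046192. It stood at 6.66, 7.36 and 7.40 CPM at high nitrate and at 0.770, 0.758 and 0.232 CPM at low nitrate in zmnrl1-m. Elsewhere no library exceeded 0.276 CPM, so the gene was close to undetected in B73 and ZmNRL1-OE at both nitrate levels. Its fall in zmnrl1-m was 12.2-fold, a log2 fold change of -3.61 ± 0.45 (SE; edgeR adjusted p = 7.58e-05).

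The next largest, Zm00001d048658, was far less even. Its high-nitrate libraries of zmnrl1-m held 2.69, 5.44 and 12.3 CPM, and its low-nitrate libraries 0.513, 0.728 and 0.463 CPM. In B73 it held 0.461, 0.0299 and 0.178 CPM at high and 5.10, 0.589 and 0.551 CPM at low nitrate, where replicate 1 alone was high and the levels of the 2 groups did not overlap. The log2 fold change in zmnrl1-m was -3.56 ± 0.89 (SE; edgeR adjusted p = 0.0107), and without zmnrl1-m high-nitrate replicate 3 it was -2.84 with an adjusted p of 0.0538.

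The most abundant members fell by little more than 2-fold. Zm00001d052229 held 453, 521 and 525 CPM at high and 270, 264 and 182 CPM at low nitrate in zmnrl1-m. In B73 it held 399, 362 and 356 CPM at high and 340, 379 and 460 CPM at low nitrate, groups that overlapped, and in ZmNRL1-OE 475, 630 and 492 against 716, 509 and 602 CPM, which overlapped too. Its log2 fold change in zmnrl1-m was -1.07 ± 0.16 (SE; edgeR adjusted p = 0.000293).

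Zm00001d048625 differed from it in its level at high nitrate. It held 358, 402 and 403 CPM at high and 207, 164 and 179 CPM at low nitrate in zmnrl1-m, against 124 to 185 CPM in the 6 libraries of B73 and 123 to 158 CPM in the 6 of ZmNRL1-OE. At high nitrate zmnrl1-m thus lay above every library of the other genotypes. At low nitrate it overlapped with B73 but still lay above every ZmNRL1-OE library. The log2 fold change was -1.07 ± 0.14 (SE; edgeR adjusted p = 4.91e-05).

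Among the 41 genes with at least 5 CPM in all 6 groups, the 2 largest falls were in Zm00001d037680 and Zm00001d035682, a choice made after the values were seen. Zm00001d037680 held 28.8, 33.6 and 17.9 CPM at high and 3.78, 6.28 and 5.93 CPM at low nitrate in zmnrl1-m, a log2 fold change of -2.33 ± 0.24 (SE; edgeR adjusted p = 5.20e-06). Zm00001d035682 held 19.8, 29.0 and 16.6 CPM at high and 7.47, 7.03 and 5.18 CPM at low nitrate there, a log2 fold change of -1.74 ± 0.28 (SE; edgeR adjusted p = 0.000441). In both, the high- and low-nitrate libraries of zmnrl1-m did not overlap.

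The 3 genes not called for the fall were Zm00001d002007, Zm00001d027525 and Zm00001d040248, with edgeR adjusted p of 0.0565, 0.0538 and 0.0796. Libraries overlapped in the first 2 of them and in Zm00001d013511. Zm00001d002007 held 2.33, 17.7 and 19.1 CPM at high and 1.57, 7.25 and 3.76 CPM at low nitrate in zmnrl1-m, with replicate 1 low in both groups. Its log2 fold change was -1.64 ± 0.57 (SE), and it was called at -2.14 (adjusted p = 0.00305) without zmnrl1-m high-nitrate replicate 1 and at -2.26 (adjusted p = 0.0286) without zmnrl1-m low-nitrate replicate 2. Zm00001d040248, with -1.46 ± 0.55 (SE), was called without B73 high-nitrate replicate 1 (adjusted p = 0.00495) or B73 high-nitrate replicate 2 (adjusted p = 0.0445). Its log2 fold change in zmnrl1-m stayed at -1.46 in both settings.

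Zm00001d013511 was called by a small margin. It held 7.82, 21.6 and 16.0 CPM at high and 11.1, 1.30 and 4.43 CPM at low nitrate in zmnrl1-m, where low-nitrate replicate 1 lay above high-nitrate replicate 1. The log2 fold change was -1.43 ± 0.48 (SE; edgeR adjusted p = 0.0471), and the call was lost in 16 of 25 other settings, with adjusted p from 0.00208 to 0.218 over all 25. It was -2.39 without zmnrl1-m low-nitrate replicate 1 and -0.95 without zmnrl1-m low-nitrate replicate 2. Where the call was lost without a B73 or ZmNRL1-OE library, the log2 fold change stayed at -1.43 to -1.44. The edgeR adjusted p was then at most 0.0594.

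In the other genotypes the few called responses were rises. In B73, 5 of the 81 genes had a called rise and 0 a called fall, where 9.24% and 5.49% of all genes tested were. In ZmNRL1-OE, 7 were called higher and 0 lower, where 10.8% and 13.1% were. Medians of the log2 fold change were 0.16 and 0.13. The rule removed falls in both genotypes, so the count of 0 follows from it. At an unadjusted edgeR p under 0.05, in either direction, the model had 13 of the 81 genes in B73 and 10 in ZmNRL1-OE. The share of all genes under that limit was not counted, so nothing is read from these 2 counts. The count of called genes in B73 was 9 without zmnrl1-m low-nitrate replicate 3 and 10 with DESeq2.

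The rises fell on 9 genes, of which 3 were called in both genotypes, 60.0% of those of B73 and 42.9% of those of ZmNRL1-OE. Over all genes tested, 1604 rises were called in both, 64.0% of the 2507 in B73 and 54.5% of the 2943 in ZmNRL1-OE, so nothing about the 81 genes is read from the overlap. The 3 genes called in both were Zm00001d018744, Zm00001d049020 and Zm00001d054044, named after the values were seen. Zm00001d054044 rose most in both. It held 15.7, 12.6 and 12.7 CPM at high and 48.5, 24.9 and 34.5 CPM at low nitrate in B73, and 20.4, 42.1 and 22.0 against 132, 148 and 92.3 CPM in ZmNRL1-OE. In zmnrl1-m the order was turned, with 55.0, 30.4 and 45.6 CPM at high and 12.5, 20.3 and 12.7 CPM at low nitrate. None of the 3 pairs of groups overlapped.

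Its log2 fold change was 1.36 ± 0.30 in B73 (SE; edgeR adjusted p = 0.00636), 2.1 ± 0.29 in ZmNRL1-OE (adjusted p = 0.000136) and -1.52 ± 0.30 in zmnrl1-m (adjusted p = 0.00206). Zm00001d037680 rose in B73 from 15.2, 10.1 and 14.5 to 33.2, 24.1 and 25.2 CPM, a log2 fold change of 1.03 ± 0.22 (SE; edgeR adjusted p = 0.00523). In ZmNRL1-OE it held 46.9, 51.2 and 65.6 CPM at high and 75.4, 84.9 and 68.2 CPM at low nitrate, a log2 fold change of 0.43 ± 0.21 that was not called (adjusted p = 0.142).

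Zm00001d049020 rose in ZmNRL1-OE from 13.0, 9.30 and 14.2 to 26.1, 28.0 and 31.1 CPM, a log2 fold change of 1.17 ± 0.16 (SE; edgeR adjusted p = 8.70e-05). In zmnrl1-m it fell from 54.1, 70.1 and 54.1 to 30.2, 25.9 and 25.8 CPM. At low nitrate its means in B73, zmnrl1-m and ZmNRL1-OE were 28.9, 27.3 and 28.4 CPM, close together, while at high nitrate they were 18.2, 59.4 and 12.2 CPM.

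**Figure D3:**
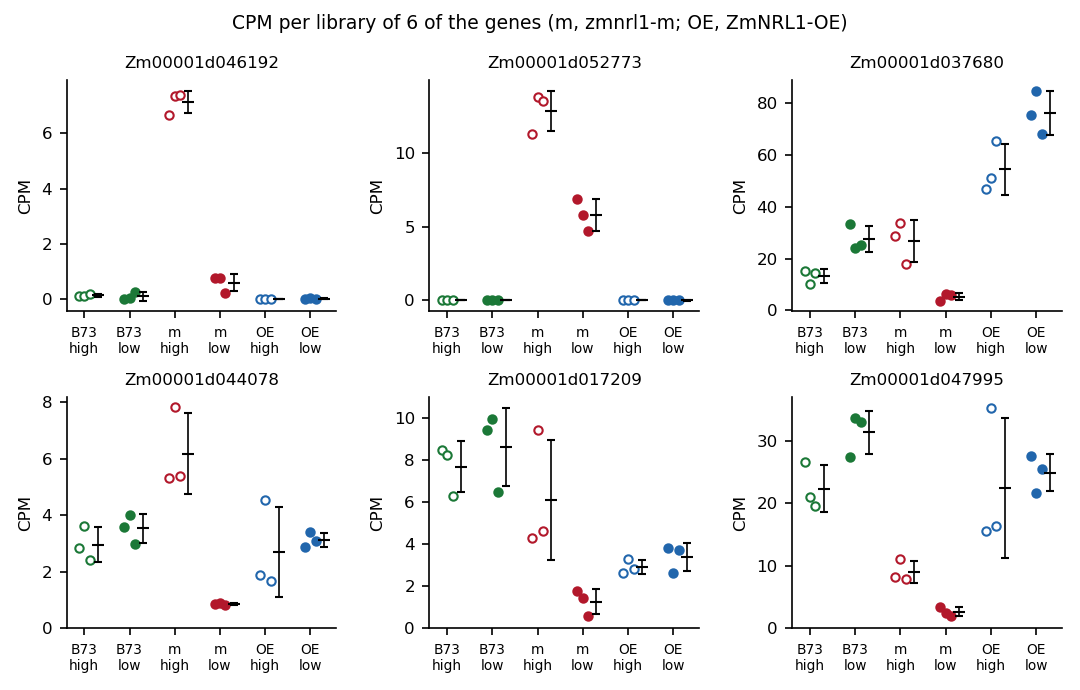
CPM in each library of 6 of the genes, with open circles for high and filled circles for low nitrate and bars for the mean and SD of 3 libraries beside them; m is zmnrl1-m and OE is ZmNRL1-OE. Zm00001d046192 and Zm00001d052773 lie near 0 outside zmnrl1-m, Zm00001d037680 and Zm00001d044078 cross from above to below B73, Zm00001d017209 is below B73 at low nitrate only, and Zm00001d047995 is below B73 at both levels.

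The difference between genotypes in the nitrate response was called in most of the genes. The fall was larger in zmnrl1-m than in B73 in 51 of 81 genes, where 5.1% of all genes tested were called in that direction, and larger than in ZmNRL1-OE in 59, where 6.75% were. The rule used these contrasts and both share the zmnrl1-m libraries, so the counts describe the choice. The median difference in log2 fold change was -1.73 in each. Between ZmNRL1-OE and B73, 0 of the 81 genes were called by edgeR for a difference in response, where 0.0479% of all genes tested were. An unadjusted edgeR p under 0.05, in either direction, was found in 5 of the 81. The share of all genes under that limit was not counted, so nothing is read from it.

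The falls started from different levels. Against B73, at a threshold of adjusted p under 0.05, zmnrl1-m was higher at high nitrate in 44 of the 81 genes and lower in 9, where 21.6% and 20.8% of all genes tested were. At low nitrate it was higher in 17 and lower in 44, where 22% and 22.8% were. The median log2 difference went from 1.03 at high to -0.88 at low nitrate. Against ZmNRL1-OE it was higher in 39 and lower in 10 genes at high nitrate, where 20.6% and 21% of all genes were, and higher in 16 and lower in 49 at low nitrate, where 30.6% and 27.3% were. These comparisons share the zmnrl1-m libraries with the rule, so they are given as descriptions.

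Gene by gene, the calls against B73 fell into 6 classes, formed after the values were seen. In 25 genes zmnrl1-m was below B73 at low nitrate only, in 17 above it at high nitrate only, and in 10 above it at high and below it at low nitrate. In 17 genes it was above B73 at both levels, in 9 below it at both, and in 3 at neither level called. Of all genes tested, the same classes held 9.36%, 7.92%, 0.475%, 13.2%, 13.0% and 39.8%. Against ZmNRL1-OE the same classes held 29, 13, 10, 16, 10 and 3 of the 81 genes, and 11.6%, 5.66%, 0.391%, 14.6%, 15.3% and 31.4% of all genes. A fall in zmnrl1-m alone favours the first 3 classes, so these shares follow in part from the rule. The class of genes called at neither level held 1 gene against B73 without B73 high-nitrate replicate 1, and against ZmNRL1-OE 5 without zmnrl1-m high-nitrate replicate 3 and 1 with DESeq2.

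**Figure D4:**
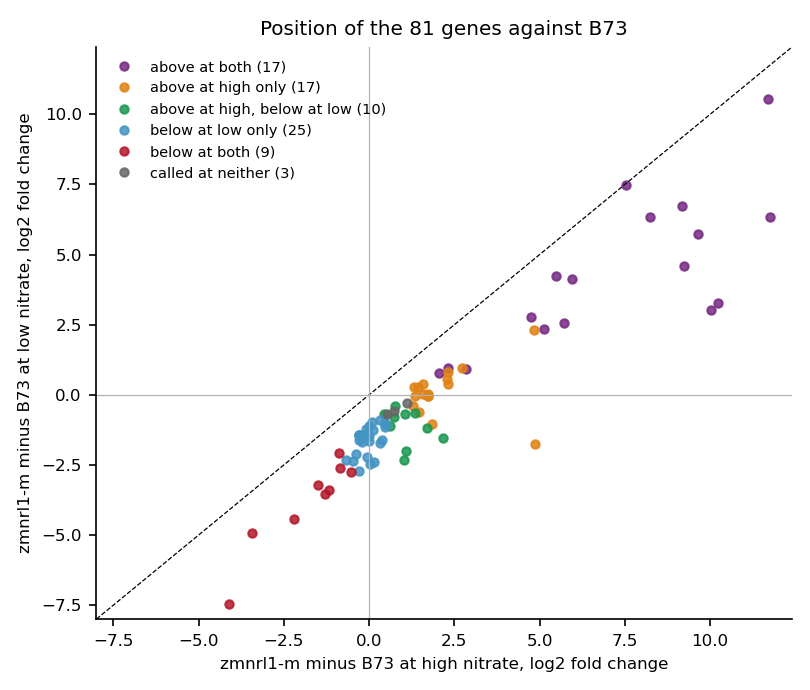
Fitted log2 fold change of zmnrl1-m against B73 at high nitrate (horizontal axis) and at low nitrate (vertical axis) for the 81 genes, coloured by which of both differences was called. All points lie below the dashed line of equal differences, and the 17 genes above B73 at both levels reach fitted values that depend on the prior count where B73 has few or no reads.

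Of the 25 genes below B73 at low nitrate only, Zm00001d017209 had the largest fall among those of at least 5 CPM in zmnrl1-m at high nitrate. It held 8.51, 8.27 and 6.31 CPM at high and 9.47, 9.96 and 6.50 CPM at low nitrate in B73. In zmnrl1-m it held 4.29, 9.44 and 4.66 CPM at high nitrate, which overlapped with B73, and 1.80, 1.42 and 0.608 CPM at low nitrate, below every B73 library. The log2 fold change in zmnrl1-m was -2.28 ± 0.35 (SE; edgeR adjusted p = 0.000251).

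Of the 10 genes that crossed B73, Zm00001d044078 had the largest fall. It held 5.31, 7.82 and 5.39 CPM at high and 0.866, 0.879 and 0.810 CPM at low nitrate in zmnrl1-m. The 6 libraries of B73 lay between 2.41 and 4.01 CPM, so zmnrl1-m was above all of them at high and below all of them at low nitrate. The log2 fold change in zmnrl1-m was -2.85 ± 0.33 (SE; edgeR adjusted p = 1.66e-05).

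The 9 genes below B73 at both levels were already low at high nitrate. Zm00001d047995, with the largest fall among those of at least 5 CPM in zmnrl1-m at high nitrate, held 8.22, 11.1 and 7.81 CPM at high and 3.43, 2.49 and 2.03 CPM at low nitrate in zmnrl1-m, below the 19.5 to 33.7 CPM of the 6 B73 libraries. Zm00001d034175 held 3.71, 4.15 and 4.98 CPM at high and 1.51, 2.03 and 1.27 CPM at low nitrate in zmnrl1-m. In the 6 libraries of B73 it held 41.7 to 59.8 CPM, and in the 6 of ZmNRL1-OE 50.4 to 73.3 CPM.

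Against B73 the log2 difference of Zm00001d034175 was -3.43 ± 0.19 at high and -4.93 ± 0.21 at low nitrate (SE; edgeR adjusted p = 2.42e-10 and 8.46e-12). Zm00001d033383 was lower still, with 0.800, 4.95 and 0.730 CPM at high and 0.417, 0.182 and 0.0289 CPM at low nitrate in zmnrl1-m, against 33.2 to 43.6 CPM in the 6 B73 libraries. Its log2 difference from B73 was -4.11 ± 0.44 at high and -7.47 ± 0.60 at low nitrate (SE; edgeR adjusted p = 1.20e-06 and 3.71e-08). High-nitrate replicate 2 of zmnrl1-m stood apart, and without it the difference from B73 at high nitrate was -5.70. Without zmnrl1-m low-nitrate replicate 1 that at low nitrate was -8.42. The other high-nitrate libraries of zmnrl1-m held 0.800 and 0.730 CPM. With 1 CPM added to each mean, R cannot reach -1 from a high-nitrate mean under 1 CPM. Zm00001d033383 therefore met the rule only with high-nitrate replicate 2 of zmnrl1-m included.

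At the other end, 18 of the 81 genes (22.2%) had a mean under 1 CPM at both nitrate levels in B73. Of 22891 genes tested that had at least 1 CPM in zmnrl1-m at high nitrate, 847 (3.70%) were that low in B73. With 1 CPM added to each mean, a gene near 0 in B73 has R near 0 there and meets that part of the rule by its level alone, so the larger share is in part built in and nothing is read from it. In ZmNRL1-OE 16 of the 81 genes were under 1 CPM at both levels, and 16 were so in both genotypes. In these 16 genes the highest group mean outside zmnrl1-m was 0.933 CPM. Their median level in zmnrl1-m, per gene length in the deposited FPKM, was 6.002 FPKM at high and 1.33 FPKM at low nitrate, with a range of 1.98 to 84.2 FPKM at high nitrate.

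Zm00001d052773 had 0 counts in all 6 B73 libraries. It held 11.3, 13.8 and 13.5 CPM at high and 6.86, 5.79 and 4.69 CPM at low nitrate in zmnrl1-m, and at most 0.0279 CPM in any library of ZmNRL1-OE. Against a floor of 3 counts over the 3 B73 libraries of a nitrate level, zmnrl1-m was at least 456-fold higher at high and at least 159-fold higher at low nitrate. Floors and count intervals cover counting error only.

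Zm00001d025142 had 0 counts in the high-nitrate libraries of B73 and in the 6 libraries of ZmNRL1-OE, and 3 counts in B73 at low nitrate. It held 13.2, 12.7 and 14.5 CPM at high and 4.14, 4.18 and 1.13 CPM at low nitrate in zmnrl1-m, at least 472-fold higher than B73 at high nitrate. Over both nitrate levels its 1402 counts in zmnrl1-m against 3 in B73 gave a ratio of 489 (95% exact binomial interval 167 to 2373). Zm00001d031346 held 55.1, 38.4 and 78.6 CPM at high and 8.28, 18.9 and 17.3 CPM at low nitrate in zmnrl1-m, and at most 0.319 CPM in any library of the other genotypes. At low nitrate its log2 difference from B73 was 6.34 ± 0.46 (SE; edgeR adjusted p = 1.12e-08). Near 0 in B73, the gene met that part of the rule by its level alone, so this p-value only describes it.

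Averaged over both nitrate levels, 30 of the 81 genes were called higher and 32 lower in zmnrl1-m than in B73, where 25.8% of all genes tested were called in each direction. The median log2 difference was 0.08. In these genes, zmnrl1-m was called above B73 about as often as below it. The rule needs a level in zmnrl1-m at high nitrate and sets no such need in B73. These counts are therefore given as a description.

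The contrast of ZmNRL1-OE with B73, averaged over both nitrate levels, was not used by the rule, which treats these genotypes alike. Of the 81 genes, 21 were called higher and 20 lower in ZmNRL1-OE, 50.6% in all, where 21.8% and 23.9% of all genes tested were called in each direction and 45.8% in either. The share of called genes was thus close to that of all genes. The median log2 difference was 0.04.

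Of the 65 members with at least 1 CPM in at least 1 group of B73 or ZmNRL1-OE, 20 were called higher and 18 lower, 58.5% in all, where 47.3% of the 24234 tested genes at such a level were called. The median size of the log2 difference was 0.54 in the 65 genes and 0.22 in the 24234, a difference that was not tested. The log2 differences ran from -3.14 to 4.92, and 51 of the 65 lay within 1 of 0. The other 16 members had means under 1 CPM in both genotypes at both nitrate levels, so differences can rest on few reads. Of these 16, 3 were called, 1 higher and 2 lower. How many of all tested genes at so low a level were called was not counted, so nothing is read from these calls.

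Zm00001d029706 had the largest positive difference among genes with at least 5 CPM in either genotype. It held 8.99, 20.1 and 8.52 CPM at high and 24.5, 13.1 and 14.6 CPM at low nitrate in ZmNRL1-OE, against at most 0.702 CPM in any B73 library. In zmnrl1-m it held 9.06, 6.81 and 17.5 CPM at high and 1.25, 4.18 and 5.18 CPM at low nitrate, so both lines were above all B73 libraries. The difference of ZmNRL1-OE from B73 was 4.92 ± 0.42 (log2, SE; edgeR adjusted p = 5.79e-08).

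Zm00001d037680, described above for its rise in B73, was the next highest in ZmNRL1-OE, with a log2 difference from B73 of 1.69 ± 0.15 (SE; edgeR adjusted p = 1.34e-07). Its lowest ZmNRL1-OE library, at 46.9 CPM, lay above its highest B73 library, at 33.2 CPM. Zm00001d020383 was the lowest by the same rule. It held 114, 132 and 53.0 CPM at high and 181, 157 and 112 CPM at low nitrate in B73, against 9.14 to 20.2 CPM in the 6 libraries of ZmNRL1-OE.

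The difference of Zm00001d020383 was -3.14 ± 0.33 (log2, SE; edgeR adjusted p = 7.20e-07). In zmnrl1-m it held 36.4, 69.5 and 25.6 CPM at high and 18.0, 17.2 and 6.19 CPM at low nitrate, so that its low-nitrate libraries there overlapped with those of ZmNRL1-OE. Zm00001d017209 held 2.65, 3.32 and 2.81 CPM at high and 3.85, 2.66 and 3.72 CPM at low nitrate in ZmNRL1-OE, below all B73 libraries, with a log2 difference of -1.43 ± 0.22 (SE; edgeR adjusted p = 6.01e-05).

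**Figure D5:**
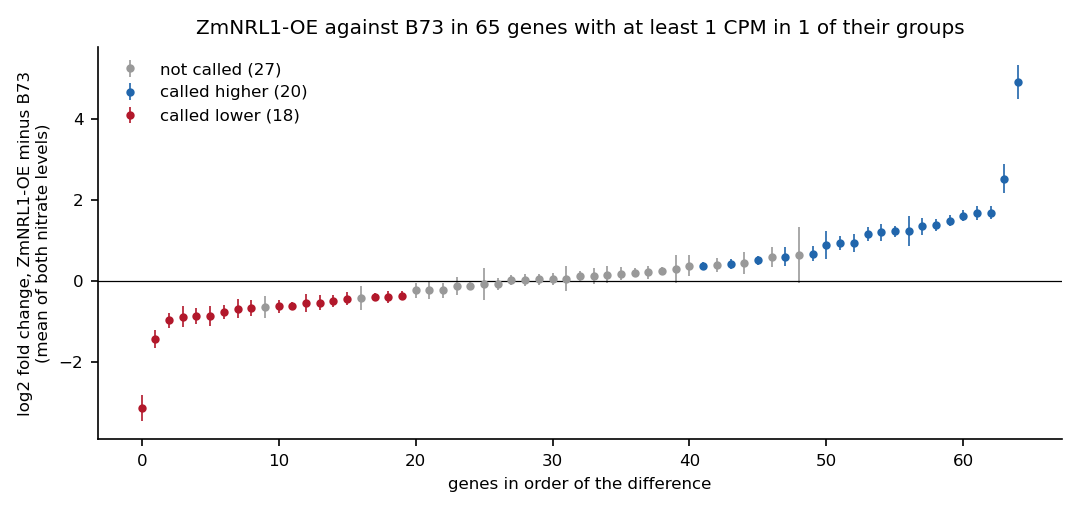
Log2 difference of ZmNRL1-OE from B73, averaged over both nitrate levels, with its SE as bars, for the 65 members with at least 1 CPM in at least 1 group of these genotypes, in order of the difference. The values run from -3.14 to 4.92, with 20 genes called higher, 18 called lower and 27 not called.

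The genes also varied in level and in length. Group means in zmnrl1-m at high nitrate ran from 0.646 to 524 FPKM with a median of 14.9 FPKM, and at low nitrate from 0.0626 to 250 FPKM with a median of 4.66 FPKM. In B73 the medians were 7.33 FPKM at high and 10.95 FPKM at low nitrate, and in ZmNRL1-OE 9.86 and 12.3 FPKM. In all 6 groups, 56 of the 81 genes had a mean of at least 1 CPM. The gene length implied by counts and FPKM had a median of 1152 bases in the 81 genes, from 225 to 10374, and of 1766.5 bases over the 26420 tested genes with a value. In shorter genes fewer reads stand behind a given FPKM. The identifiers include 2 pairs of consecutive numbers, Zm00001d002007 with Zm00001d002008 and Zm00001d002554 with Zm00001d002555, and reads shared between near-identical copies could not be checked.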

How the data were processed

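Root RNA of 18 libraries was analysed from 2 tables of 41632 genes. The authors deposited whole-number read counts per gene, which gave all tests, and FPKM, the authors' values per gene length and depth, used only to compare levels between genes. The submitters' processing notes list HISAT2 2.2.1, featureCounts 2.0.1, Trim Galore 1.18, bcl2fastq 2.19.1 and the build B73 RefGen_v4. Step order, strandedness and the handling of multi-mapped reads: not given in the sources used here.

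CPM is the count over the library total, without TMM. Tests used edgeR 4.0.16 in R 4.3.3 (glmQLFit and glmQLFTest, TMM, filterByExpr with a minimum count of 10, a mean for each of 6 groups, 12 residual degrees of freedom). A gene was called at a Benjamini-Hochberg adjusted p under 0.05 over 27134 genes. SE is the size of the log2 fold change over the square root of F. The alternatives were DESeq2 1.42.0, its size factors, library sizes alone, no filter, a minimum count of 50, a replicate block, limma 3.58.1 on log2(FPKM + 1), each library left out, and 0.5 or 2 as pseudocount, TMM, FPKM or medians in the rule. The model was tested on simulated data; its pass mark was set again after a first run had missed a stricter one, and the model was not changed.

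The genes, the contrasts and the rule for named genes were chosen with earlier results of these data known. The rule took, for each comparison, at most 2 higher and 2 lower genes of largest change with at least 5 CPM in a group compared, the 2 most abundant genes, and 2 whose replicates overlapped. Gene lists could not be used, as the identifiers have no names here. Implied gene lengths were whole within 0.05 bases for 100% of 2950 genes after 1 scale factor.

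Replicate numbers are shared across groups. Deviations of same-numbered libraries from their group means, in TMM-scaled log2 CPM, correlated with r = 0.41, 0.12 and 0.26 between both B73 groups, above a limit of 0.1 in every pair. A first check in log2(CPM + 1) without TMM had given 0.22, 0.0088 and 0.23, which misses the limit in 1 pair, and the scale was changed after that result was seen. Whether the numbers pair the B73 libraries therefore depends on the scale. In the other contrasts of 2 groups at least 1 pair was below the limit.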

Additional observations from a re-analysis of the deposited data

Results flagged for a closer look

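The nitrate response differed between genotypes by the test of the difference itself (edgeR interaction) in 51 of the 81 genes for zmnrl1-m against B73 and in 59 for zmnrl1-m against ZmNRL1-OE. Both counts were flagged as differences between groups, where 5.1% and 6.75% of all genes tested were called in the same direction. Both follow in part from the rule that chose the genes, so they are no independent evidence.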

How the results depend on the processing

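With 1 library left out in turn, the rule chose 72 to 117 genes, and with other pseudocounts, units or medians 68 to 115. The number of the 81 genes called was then 69 to 79 for the response of zmnrl1-m, 4 to 9 for B73 and 6 to 9 for ZmNRL1-OE. It was 36 to 57 and 44 to 61 for the difference of the zmnrl1-m response from B73 and ZmNRL1-OE. For zmnrl1-m against B73 it was 48 to 55 at high nitrate, 54 to 61 at low nitrate and 61 to 63 averaged, and 37 to 43 for ZmNRL1-OE against B73. In other settings the count for B73 was 10 with DESeq2, and the cause was not tested. The exchanged rule gave 4 genes for B73 and 23 for ZmNRL1-OE with medians, and 16 for ZmNRL1-OE with a pseudocount of 0.5. With the replicate block the response counts were 77 for zmnrl1-m, 6 for B73 and 7 for ZmNRL1-OE, and those of the other comparisons between 40 and 64. Of 32 named values under 25 settings, 778 of 800 kept their side of the threshold, 17 lost and 5 gained a call, and 0 reversed. The 16 genes with group means under 1 CPM outside zmnrl1-m limit what the responses of B73 and ZmNRL1-OE can show there.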
